A study of Mus musculus with 18 samples.

Results

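The C/EBP palindrome TTGCGCAA joins the half-site GCAA to its own reverse complement, TTGC, and so places a CpG at its centre. Its members here are the 8-mers that hold the first 7 or the last 7 bases of the palindrome. They number 15 of the 65530 8-mers in the deposited table, and all 15 were among the 65121 8-mers that at least 1 probe held and that were tested. Beside the palindrome itself, 7 members keep GCAA intact on the strand that carried the modified cytosine, and the other 7, their reverse complements, keep it intact on the opposite, unmodified strand. The rule uses sequence alone.

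Binding of the mouse proteins CREB1, ATF1 and JUND was measured on protein binding microarrays, on which a tagged protein is incubated with double-stranded probes and read by fluorescence. Each protein was the DNA-binding domain with 15 residues on either side, fused to GST and made by transcription and translation in vitro, so no full-length protein was tested. The groups were CREB1, ATF1 and JUND, each on DNA made double-stranded with 5-methylcytosine (5mC), with 5-hydroxymethylcytosine (5hmC) or with cytosine (C), with 2 arrays in each of the 9 groups and 18 arrays in all. The title of the series names the question, the binding of CREB1 to GCAA on both kinds of modified DNA. Modified DNA was modified on 1 strand, because primer extension placed the modified base at every C of the synthesized strand and left the printed strand with cytosine. An 8-mer is written 5′ to 3′ as it reads on the synthesized strand, which is the modified strand on 5mC and 5hmC arrays. Values are the deposited z-scores of 8-mers, and differences are in z-score units. The sources do not say that the 2 arrays of a group held separate protein preparations, so the p-values describe the spread between arrays and no more.

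Proteins of the bZIP class bind DNA as dimers, and each subunit contacts 1 half-site through its basic region. C/EBP proteins prefer half-sites ending in GCAA, whereas CREB1 and ATF1 bind the cAMP response element (CRE) palindrome TGACGTCA, and JUND, a member of the AP-1 family, also uses TGAC half-sites. DNA methyltransferases make 5mC, mainly at CpG, and TET enzymes oxidise it to 5hmC.

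The members are listed because they differ only in the strand that keeps GCAA and in the base beside it. Capitals mark the intact half-site, written GCAA where it lies on the modified strand and TTGC where GCAA lies on the printed strand.
Palindrome, GCAA on both strands: TTGCGCAA
GCAA on the modified strand, then T: tgcGCAAt
Its reverse complement: aTTGCgca
GCAA on the modified strand, then C: tgcGCAAc
Its reverse complement: gTTGCgca
GCAA on the modified strand, then G: tgcGCAAg
Its reverse complement: cTTGCgca
GCAA on the modified strand, then A: tgcGCAAa
Its reverse complement: tTTGCgca
GCAA on the modified strand, C first: ctgcGCAA
Its reverse complement: TTGCgcag
GCAA on the modified strand, A first: atgcGCAA
Its reverse complement: TTGCgcat
GCAA on the modified strand, G first: gtgcGCAA
Its reverse complement: TTGCgcac

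Each member lay on 15 to 19 probes and held 2 or 3 cytosines on the synthesized strand. Neighbouring members share probes: of the 17 probes with tgcGCAAt, 5 also held the full palindrome, and the z-scores of such members are not independent. The probes with the brightest and the dimmest signal for 2 members on CREB1 5mC replicate 1 are shown because they hold the same 8-mer (in capitals) in different surroundings. All 4 are written as the synthesized strand, whose 5′ end lies next to the primer.
Brightest with the palindrome: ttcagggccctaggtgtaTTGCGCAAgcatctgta
Dimmest with the palindrome: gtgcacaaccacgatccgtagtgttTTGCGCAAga
Brightest with tgcGCAAt: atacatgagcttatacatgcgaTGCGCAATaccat
Dimmest with tgcGCAAt: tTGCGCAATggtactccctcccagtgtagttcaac

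The arrays differed in brightness, with a median probe signal of 519 to 8014 and a ratio of median signal to median background of 1.55 to 14.0. Replicate z-scores correlated across all 8-mers with a Pearson r of 0.65 to 0.957 in 8 groups and of 0.29 on JUND 5hmC, and 8-mers are not independent replicates. All 3 proteins bound the CRE palindrome on C DNA: TGACGTCA had z-scores of 193 and 136 for CREB1, 121 and 89.7 for ATF1 and 69.1 and 13.9 for JUND. Of the 118 probes that held a member, 3 readings in all over the 18 arrays were at the scanner's ceiling.

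CREB1 bound the C/EBP palindrome 8-mers more strongly on 5mC DNA than on C DNA, and 12 of the 15 members rose. The palindrome TTGCGCAA had z-scores of 32.0 and 23.3 on 5mC DNA, against 3.73 and 5.81 on C DNA. The highest member was tgcGCAAt, at 71.1 and 26.0 on 5mC DNA, against 3.56 and 6.44 on C DNA. Both 5mC arrays lay above both C arrays for each of these, although the replicates on 5mC DNA were far apart for tgcGCAAt. The 5mC minus C difference was 22.9 for TTGCGCAA (SE 2.98, adjusted p = 1.97e-05) and 43.6 for tgcGCAAt (SE 8.81, adjusted p = 0.00218). In the whole table, 2.25% of 8-mers rose on 5mC DNA, the median difference of all 8-mers was -0.06, and that of the members was 7.44.

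The remaining members with GCAA on the modified strand all rose as well. For tgcGCAAc the z-scores were 30.8 and 24.7 on 5mC DNA, against 2.62 and 3.09 on C DNA (difference 24.9, SE 2.40, adjusted p = 5.62e-07). The member ctgcGCAA had 23.0 and 16.6 on 5mC DNA, against 0.00 and -0.52 on C DNA (difference 20.1, SE 1.50, adjusted p = 3.59e-08). It therefore had no binding above the array's middle on C DNA, where its percentile among all 8-mers was 49.7 and 27.1, and it stood at the 99.8 and 99.9 percentile on 5mC DNA. For tgcGCAAg the 5mC arrays read 18.1 and 8.37, and the C arrays 0.98 and 2.28 (difference 11.6, adjusted p = 0.000214). The other 3, atgcGCAA, gtgcGCAA and tgcGCAAa, had group means of 8.96 to 12.0 on 5mC DNA and rose by 7.44 to 9.01. On the 5mC arrays they read 13.5 and 10.6, 15.6 and 6.97, and 11.8 and 6.09. The size of several changes rested on 5mC replicate 1: without it the difference was 21.0 for tgcGCAAt, 6.74 for tgcGCAAg, 4.18 for gtgcGCAA and 4.56 for tgcGCAAa, and all 4 stayed past the threshold. Without replicate 2 it was 66.1 for tgcGCAAt and 12.9 for gtgcGCAA. The base after GCAA went with the level on 5mC DNA: mean z-scores were 48.6 ± 31.9 for T, 27.8 ± 4.29 for C, 13.2 ± 6.85 for G and 8.96 ± 4.07 for A (SD, n = 2 arrays each). T and C were the higher bases and A and G the lower ones on both arrays, although T and C differed by less than their spread, as did G and A. The CREB1 means on C DNA had the same order, at 5.00 for T, 2.86 for C, 1.63 for G and 1.53 for A. For ATF1 on 5mC DNA they were 21.5 for T, 11.5 for C, 3.56 for G and 4.91 for A.

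Members with GCAA on the printed strand alone rose less, and 4 of 7 passed the test. For cTTGCgca the z-scores were 7.43 and 10.6 on 5mC DNA, against 0.95 and 2.57 on C DNA (difference 7.25, SE 1.03, adjusted p = 5.79e-05). The 5mC and C arrays read 7.63 and 7.36 against 2.61 and 2.47 for gTTGCgca, 6.39 and 7.86 against 0.81 and 1.67 for TTGCgcag, and 3.37 and 3.23 against 0.28 and 0.06 for tTTGCgca. All 4 had both 5mC arrays above both C arrays, which is no separate support, because the test that picked them used the same arrays. However, 4 probes each of cTTGCgca, gTTGCgca and tTTGCgca also held the full palindrome, and none of TTGCgcag did. Without them, the median probe signal as a fold of the array median was lower on the 5mC arrays. It fell from 3.32 and 3.73 to 2.99 and 2.37 for cTTGCgca. For gTTGCgca it fell from 3.32 and 3.02 to 1.65 and 1.68, and for tTTGCgca from 2.14 and 1.77 to 1.81 and 1.42. On the C arrays it was then 1.23 and 1.44, 1.13 and 1.30, and 1.04 and 0.99. The 3 that did not pass were aTTGCgca (adjusted p = 0.541), TTGCgcac (0.308) and TTGCgcat (0.104), with differences of 1.65, 1.51 and 2.29. At a z-score of 4 or more, taken here as bound, 13 and 11 of the 15 members were bound on the CREB1 5mC arrays, against 0 and 3 on the C arrays. Of all 8-mers, 2.53% and 1.96% were bound on the 5mC arrays and 4.25% and 5.99% on the C arrays. With 3 as the limit, 14 and 13 members were bound on the 5mC arrays, against 2 and 5 on the C arrays.

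The count of 12 was 12 or 13 when any 1 CREB1 array was left out. It was 5 in log2 values recomputed without the probes that also held TGAC or ACGT, where between 9 and 17 probes per member remained. In that setting TTGCGCAA missed the threshold (adjusted p = 0.115), as it did with the normexp background model (0.0683) and with the 6 CREB1 arrays alone (0.0514), and so did tgcGCAAt in the first and the last (0.0521 and 0.157).

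Each of the 7 non-palindromic pairs is the same duplex with the modified base on one strand or on the other, so the z-score of a member minus that of its reverse complement compares the strands within an array. On 5mC DNA, the CREB1 mean was higher with GCAA on the modified strand in all 7 pairs, and 6 pairs passed the test. For tgcGCAAt minus aTTGCgca the difference was 64.0 and 22.4 on the 5mC arrays, against 0.59 and 2.04 on the C arrays. For tgcGCAAc minus gTTGCgca it was 23.2 and 17.4 on the 5mC arrays, against 0.01 and 0.62 on the C arrays. Both pairs thus read nearly alike in the 2 orientations on C DNA and apart on 5mC DNA. The pair ctgcGCAA and TTGCgcag differed by 16.6 and 8.76 on the 5mC arrays, against -0.81 and -2.19 on the C arrays. The mean differences on 5mC DNA were 43.2 (SE 5.06, adjusted p = 5.61e-06), 20.3 (SE 1.46, adjusted p = 1.01e-08) and 12.7 (SE 1.19, adjusted p = 3.50e-07) for these 3 pairs.

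For the other pairs that passed, atgcGCAA, gtgcGCAA and tgcGCAAa exceeded their reverse complements on CREB1 5mC DNA by 8.63, 9.51 and 5.67. The 2 arrays gave 14.9 and 4.12 for gtgcGCAA, and 8.47 and 2.86 for tgcGCAAa. The call of tgcGCAAa was lost without 5mC replicate 1 (adjusted p = 0.0866), with normexp (0.0612) and without the probes that held TGAC or ACGT (0.142), and no other of these 6 calls was lost in any setting. The exception was tgcGCAAg minus cTTGCgca, at 10.6 on 5mC replicate 1 and -2.22 on replicate 2 (adjusted p = 0.0961), so that its 2 arrays disagreed in sign. An orientation difference was common on these arrays: 14.6% of the 32225 pairs of 8-mers were called in either direction on CREB1 5mC DNA. On C DNA, where the strands carry the same base, limma called none of the 7 member pairs, none had an unadjusted p under 0.05, and 10.9% of all pairs were called.

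The orientation difference was larger on 5mC than on C DNA in 4 of the 7 pairs, tgcGCAAt, tgcGCAAc, ctgcGCAA and atgcGCAA, by 41.9, 20.0, 14.2 and 6.73 (adjusted p = 0.000898, 4.00e-06, 1.75e-05 and 0.00507). Over all pairs, 4.43% changed in either direction. All 7 changes were above 0, and the lowest was 4.31 for tgcGCAAa (adjusted p = 0.0733). Without CREB1 5mC replicate 2 the count was 7, and it was 2 with log2 recomputation, 1 with normexp and 0 without the probes that held TGAC or ACGT.

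With 5hmC, CREB1 bound the members less than with 5mC. TTGCGCAA had z-scores of 6.97 and 10.4 on 5hmC DNA, against 32.0 and 23.3 on 5mC DNA, and the difference was -19.0 (SE 2.98, adjusted p = 0.00221). For ctgcGCAA the 5hmC arrays read 1.45 and 3.27 and the 5mC arrays 23.0 and 16.6 (difference -17.5, SE 1.50, adjusted p = 6.28e-06). In both cases the 2 groups did not overlap, which is no separate support, because both members had passed the test on these arrays. In the 5hmC minus 5mC comparison 9 of 15 members fell, where 0.766% of all 8-mers fell, and the members' differences ran from -34.3 to -1.05. The largest of these, for tgcGCAAt at 15.3 and 13.2 on 5hmC DNA, missed the threshold (adjusted p = 0.0723). The call of TTGCGCAA was lost in 7 of 16 other settings, among them quantile normalization (adjusted p = 0.0835), log2 recomputation (0.318), the CREB1 arrays alone (0.211) and the fit without 5hmC replicate 1 (0.0536), and that of ctgcGCAA in none of the 16. Without CREB1 5hmC replicate 2 the count was 5, and it was 1 to 3 with the 3 log2 settings that keep orientations apart, with orientations merged, or with the CREB1 arrays alone.

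Against C DNA, no member passed the limma test on 5hmC DNA for CREB1, and 1 had an unadjusted p under 0.05, tgcGCAAc. This member had z-scores of 7.82 and 9.04 on 5hmC DNA, against 2.62 and 3.09 on C DNA (difference 5.57, 95% interval 0.55 to 10.6, adjusted p = 0.202). The arrays read 6.97 and 10.4 against 3.73 and 5.81 for TTGCGCAA (difference 3.93, 95% interval -2.29 to 10.2), and 15.3 and 13.2 against 3.56 and 6.44 for tgcGCAAt (difference 9.23, 95% interval -9.17 to 27.6). In all 3, the highest members on 5mC DNA, the 5hmC arrays were above the C arrays. So they were in ctgcGCAA, tgcGCAAg, gtgcGCAA, tgcGCAAa and tTTGCgca. In the other members the groups overlapped, as in aTTGCgca (3.61 and 2.82 against 2.97 and 4.41). The share of all 8-mers that separate in this way was not counted. The difference was above 0 in 10 of 15 members and in 46.9% of all 8-mers. The intervals are wide and use a spread shared over all 9 groups. For tgcGCAAt the SD was 31.9 on CREB1 5mC DNA, 1.51 on CREB1 5hmC DNA and 2.04 on CREB1 C DNA. Of all 8-mers, 7.89% were called on 5hmC against C DNA, in either direction. The count of members was 2 with log2 recomputation, 3 with normexp, 1 without the mean-variance trend and 1 when either CREB1 5mC array was left out.

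On 5hmC DNA the orientation of GCAA went with the CREB1 level in all 7 pairs on both arrays, and on C DNA, where the strands carry the same base, it did so in 6 and 5 of 7 pairs. The median z-score over the 7 members with GCAA on the modified strand was 5.80 and 3.68 on the 5hmC arrays, and that over their reverse complements 0.90 and 1.46. On the C arrays these medians were 2.09 and 2.92, and 0.95 and 1.67. Of the pairs, 2 passed the test, tgcGCAAc minus gTTGCgca (6.05, SE 1.46, adjusted p = 0.00879) and atgcGCAA minus TTGCgcat (4.11, SE 0.98, adjusted p = 0.00834), where 14.5% of all pairs were called. The largest difference was 11.0 for tgcGCAAt minus aTTGCgca, with an adjusted p of 0.149. The count was 0 without 5hmC replicate 1, 1 without 5hmC replicate 2 or with the CREB1 arrays alone, 4 when either 5mC array was left out, 4 with log2 recomputation and 5 with normexp. The change of the difference between 5hmC and C DNA passed in no pair, against 3.57% of all pairs, and 1 pair had an unadjusted p under 0.05. It was called in 2 pairs with normexp or when either CREB1 5mC array was left out, and in 1 without the trend.

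ATF1, the close relative of CREB1, had the same 3 members highest on 5mC DNA, at lower deposited z-scores. On ATF1 5mC arrays tgcGCAAt read 20.7 and 22.4, against 2.98 and 3.89 on C arrays, and TTGCGCAA read 12.1 and 14.1, against 4.22 and 2.90. The member tgcGCAAc read 12.3 and 10.7 on 5mC DNA, against 2.79 and 3.87 on C DNA. These 3 led the members on both 5mC arrays of ATF1 and of CREB1, and the ATF1 5mC and C groups did not overlap in any of them. They were named for their high values on 5mC DNA, so this separation is no separate support. Their differences of 18.1, 9.53 and 8.17 missed the threshold (adjusted p = 0.297, 0.0879 and 0.0682), in a fit whose spread is shared with the CREB1 arrays. The size relative to CREB1 depends on the scale: with quantile normalization the TTGCGCAA difference was 27.0 for CREB1 and 29.4 for ATF1 (adjusted p = 0.00224 for ATF1). TTGCGCAA was also called for ATF1 without the trend (0.0181) and with the ATF1 arrays alone (0.000382). The 3 members that rose were ctgcGCAA (8.39, SE 1.50, adjusted p = 0.00577), cTTGCgca (6.29, SE 1.03, adjusted p = 0.00369) and TTGCgcag (2.79, SE 0.758, adjusted p = 0.0485), against 1.19% of all 8-mers, and 8 members had an unadjusted p under 0.05.

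The ATF1 count of 3 depended on the setting. It was 8 with the 6 ATF1 arrays alone, 7 with quantile normalization or log2 recomputation, 6 without the trend or with orientations merged, and 1 without the probes that held TGAC or ACGT. It was 1 without ATF1 5mC replicate 1 or C replicate 2, and 0 without 5mC replicate 2 or C replicate 1. By number bound, 9 and 10 of 15 members reached a z-score of 4 on ATF1 5mC arrays, against 1 on each C array, where 1.16% and 1.28% of all 8-mers were bound on 5mC DNA and 2.96% and 3.00% on C DNA. These counts moved with the limit: at 6 they were 5 on each 5mC array and 0 on each C array, and at 3 they were 10 and 11 on the 5mC arrays and 2 and 4 on the C arrays.

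With 5hmC, the ATF1 z-scores of the members lay near those on C DNA, with a median difference of -0.06. TTGCGCAA read 3.74 and 4.54 on 5hmC arrays, against 4.22 and 2.90 on C arrays (difference 0.58, 95% interval -5.64 to 6.81). For tgcGCAAt the arrays read 4.76 and 4.68 on 5hmC DNA, against 2.98 and 3.89 on C DNA (difference 1.28, 95% interval -17.1 to 19.7). The intervals are wide and use the same shared spread, whereas the SDs of tgcGCAAt were 0.0543 on ATF1 5hmC DNA and 0.641 on ATF1 C DNA. No member was called by limma, with none at an unadjusted p under 0.05, where 2.18% of all 8-mers were called. Against 5mC DNA, 3 members fell on 5hmC DNA, cTTGCgca (difference -6.94), ctgcGCAA (-7.06) and TTGCgcag (-3.67; adjusted p = 0.00663, 0.034 and 0.0298), where 0.591% of all 8-mers fell. That count was 0 or 1 when any 1 ATF1 array was left out and 1 without the probes that held TGAC or ACGT, and it was 9 with the ATF1 arrays alone, 8 with quantile normalization and 6 with orientations merged.

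ATF1 on 5mC DNA also read higher with GCAA on the modified strand in 5 of the 7 pairs by the test, where 20.5% of all pairs were called in either direction. For tgcGCAAt minus aTTGCgca the difference was 18.3 and 18.7 on the 5mC arrays, against -0.49 and -1.44 on the C arrays. For tgcGCAAc minus gTTGCgca it was 9.33 and 6.49 on the 5mC arrays, against 1.47 and 2.12 on the C arrays. The pair gtgcGCAA minus TTGCgcac was above 0 but not called (mean 3.66, adjusted p = 0.0822). The only pair below 0 was the pair not called for CREB1: tgcGCAAg minus cTTGCgca was -2.71 and -4.82 on the 5mC arrays. Its mean was -3.77 (adjusted p = 0.114), with the higher level where GCAA lay on the printed strand. The count of 5 fell to 0 without 5mC replicate 1 and to 1 without 5mC replicate 2 or with normexp, and was 2 without the probes that held TGAC or ACGT.

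On ATF1 5hmC DNA and ATF1 C DNA no pair was called or had an unadjusted p under 0.05, where 9.25% and 6.23% of all pairs were called. The change of the orientation difference between 5mC and C DNA passed in no pair, against 1.46% of all pairs, and 5 of 7 had an unadjusted p under 0.05. It was called in 6 pairs with the ATF1 arrays alone, in 4 with quantile normalization and in 1 with log2 recomputation or without the trend. Between 5hmC and C DNA it passed in no pair, with none at an unadjusted p under 0.05, against 0.0403% of all pairs.

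For JUND no member exceeded a z-score of 7.53 on any array, although the highest of all 8-mers on its 5mC arrays reached only 27.0 and 22.2. Its highest member on 5mC DNA was again tgcGCAAt, at 7.53 and 5.17 on 5mC arrays, against 2.67 and 0.73 on C arrays. TTGCGCAA read 3.77 and 3.99 on 5mC arrays, against 2.00 and 3.10 on C arrays, and atgcGCAA read 5.89 and 2.86, against 2.17 and 0.97. Both 5mC arrays lay above both C arrays in these 3. They also did so in tgcGCAAc (4.72 and 3.51 against 1.35 and 1.25) and tgcGCAAg (1.36 and 1.74 against 1.00 and 0.11). The same held in cTTGCgca (1.98 and 1.96 against 1.04 and -0.17). Both lay below both C arrays in aTTGCgca (1.46 and 1.78 against 2.63 and 2.83) and gTTGCgca (1.35 and 1.30 against 1.98 and 2.44). In the other members the groups overlapped, and the share of all 8-mers that separate in this way was not counted. The 5mC minus C difference was above 0 in 10 of 15 members and in 51.9% of all 8-mers. Of the 15 members, 3 and 1 were bound on 5mC arrays, against 0 on both C arrays. Of all 8-mers, 0.978% and 0.981% were bound on the 5mC arrays and 1.59% and 0.375% on the C arrays. No member was called between 5mC and C, between 5hmC and C or between 5hmC and 5mC, none had an unadjusted p under 0.05 in any of these, and 1.04%, 0% and 3.11% of all 8-mers were called. On 5hmC DNA the members ran from -0.83 to 2.39 on replicate 1 and from -0.22 to 2.92 on replicate 2, with no member bound.

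For JUND, 1 orientation pair passed on 5mC DNA, atgcGCAA minus TTGCgcat (5.07 and 2.22 on the 5mC arrays, mean 3.64, SE 0.98, adjusted p = 0.00944), among 27% of all pairs. That call was lost without JUND 5mC replicate 1, and the count was 2 with quantile normalization, with log2 recomputation or with the JUND arrays alone. No pair passed on 5hmC DNA or on C DNA, with none at an unadjusted p under 0.05, where 10.6% and 18.5% of all pairs were called. The change against C passed in no pair for 5mC, with 1 at an unadjusted p under 0.05, or for 5hmC, with 0, against 2.61% and 0% of all pairs.

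The effect of 5mC itself was compared between the proteins in the same fit. It was larger for CREB1 than for JUND in all 15 members by the estimate, and 9 passed the test, where 0.511% of all 8-mers had a higher effect for CREB1. For TTGCGCAA the 5mC minus C difference was 22.9 for CREB1 and 1.33 for JUND, so that the effects differed by 21.6 (SE 4.22, adjusted p = 0.00427). For ctgcGCAA it was 20.1 for CREB1 and 0.41 for JUND, a difference of 19.7 (SE 2.13, adjusted p = 1.72e-05). TTGCGCAA was no longer called with quantile normalization (adjusted p = 0.146) or in any of the 4 log2 settings (0.296 to 0.471). The count was 5 without JUND 5mC replicate 2 or C replicate 1, 4 with quantile normalization or with orientations merged, and 1 in the 3 log2 settings that keep orientations apart.

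Between CREB1 and ATF1, 2 members passed, ctgcGCAA (20.1 for CREB1 and 8.39 for ATF1, adjusted p = 0.0186) and tgcGCAAc (24.9 for CREB1 and 8.17 for ATF1, adjusted p = 0.0371), where 0.02% of all 8-mers had a higher effect for CREB1. With quantile normalization the effects differed by 3.40 for ctgcGCAA and 3.79 for tgcGCAAc, and there and in all 4 log2 settings neither was called (adjusted p = 1 in each). With the replicate block tgcGCAAc was not called (adjusted p = 0.051). Both calls were also lost without any 1 ATF1 5mC or C array or without the JUND arrays, and 1 remained without any 1 CREB1 or ATF1 5hmC array, while 7 members passed without CREB1 5mC replicate 2. Between ATF1 and JUND, no member was called for 5mC, with 5 at an unadjusted p under 0.05, against 0.0138% of all 8-mers, and 1 was called with quantile normalization. The effect of 5hmC against C differed for no member between CREB1 and ATF1, CREB1 and JUND, or ATF1 and JUND, with none at an unadjusted p under 0.05, where 0.215%, 3.06% and 0.0184% of all 8-mers were called.

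Signals of the probes themselves, taken as the background-subtracted signal divided by the median of the array, give the members on another scale. Disjoint sets of probes held the full palindrome (17 probes), only its last 7 bases and so GCAA on the modified strand (51 probes), or only its first 7 bases and so GCAA on the printed strand (49 probes), and 1 probe held both parts at different places. On the CREB1 5mC arrays the median fold was 11.8 and 6.32 with the full palindrome, 7.09 and 3.20 with the last 7 bases and 2.01 and 1.91 with the first 7. The order was thus both strands, modified strand, printed strand on both arrays. On the 5hmC arrays the same medians were 2.76 and 2.61, 2.56 and 1.58, and 1.24 and 1.20. On the C arrays they were 2.06 and 2.33, 1.38 and 1.54, and 1.16 and 1.29. The order was therefore the same on the C arrays, where neither strand is modified.

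For ATF1 on 5mC DNA the 3 medians were 3.85 and 3.63, 2.43 and 2.34, and 1.54 and 1.56, in the same order. For JUND on 5mC DNA they were 1.81 and 1.92, 1.57 and 1.44, and 1.14 and 1.15. Of the 17 probes with the full palindrome, 14 and 13 were above the 95th percentile of all probes on the CREB1 5mC arrays, against 2 and 1 on the C arrays. Because 5 of these 17 probes also held TGAC or ACGT, sequences of the CRE, the median was taken without them too. It was then 12.6 and 4.88 on the CREB1 5mC arrays, against 1.88 and 2.18 on the C arrays.

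For tgcGCAAt, the 12 probes without the full palindrome had a median fold of 25.5 and 7.57 on the CREB1 5mC arrays, against 2.22 and 2.48 on the C arrays. Probes with the same 8-mer were far from equally bright. Of the palindrome probes shown at the start, the brightest read 36.7 and 9.69 on the CREB1 5mC arrays, with the site from base 19 to 26 of the 35 variable bases, and the dimmest read 2.27 and 1.80, with the site from base 26 to 33. Of the tgcGCAAt probes shown, the brightest read 48.9 and 15.9 with the site from base 23 to 30, and the dimmest on replicate 1 read 4.46 and 2.57 with the site from base 2 to 9. That dimmest probe also held the full palindrome, from base 1 to 8, and so counts among the palindrome probes too.

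Position on the probe went with the signal for tgcGCAAt, as seen after the values were known and therefore given without a test. For tgcGCAAt, the 10 probes with the site starting at base 9 to 25 ran from 24.3 to 48.9 on CREB1 5mC replicate 1, and all lay above the 5 probes with a start at base 1 to 8 (4.46 to 8.61) and the 2 with a start at base 26 to 28 (6.83 and 10.4). On replicate 2 the 10 in the middle ran from 6.32 to 15.9, again above the 5 near the 5′ end (1.34 to 3.79) and the 2 near the 3′ end (1.75 and 5.46). The 2 end ranges overlapped each other on both arrays. For the palindrome the ranges on replicate 1 overlapped, at 3.70 to 36.7 for the 12 probes in the middle and 4.46 to 12.2 for the 3 near the 5′ end. Surrounding bases differ between these probes too, and their part in the signal was not tested.

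Single-base changes at the inner positions 2 to 7 of the palindrome were read on the CREB1 5mC arrays. Because the site is a palindrome, each of the 9 changes in TTGC is the reverse complement of 1 of the 9 in GCAA. The 2 sets are thus 9 duplexes read in both orientations, with GCAA intact on the modified strand in the first set and on the printed strand in the second, and they extend the comparison of strands to other 8-mers. Substitutions are given as the palindrome's base, its position from the 5′ end of the synthesized strand, and the new base, and the changed base is in capitals. Of the 18, the 3 highest and the 3 lowest by the mean of these arrays are shown: the highest alter TTGC and keep GCAA on the modified strand, and the lowest alter GCAA.
G3A, highest: ttAcgcaa
G3T, next: ttTcgcaa
T2C, next: tCgcgcaa
G5T, lowest: ttgcTcaa
G5C, next lowest: ttgcCcaa
C6G, next lowest: ttgcgGaa

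The z-scores on the CREB1 5mC arrays were 66.5 and 28.4 for ttAcgcaa, 19.4 and 10.5 for ttTcgcaa and 14.1 and 11.8 for tCgcgcaa. The palindrome read 32.0 and 23.3 on the same arrays, so ttAcgcaa was above it on both and the other 2 below it. The 3 lowest were ttgcTcaa at -0.67 and -0.41, ttgcCcaa at -0.37 and -0.34, and ttgcgGaa at 0.18 and 0.03. Over all 9 changes in TTGC the median was 10.5 and 5.13 and 8 and 6 were bound, whereas over all 9 in GCAA the median was 0.91 and 0.48 and 1 and 0 were bound. On 5mC against C DNA, 6 of the 9 variants in TTGC rose, and of the 9 in GCAA none rose and 1 fell. For CREB1 on 5hmC against C DNA, 3 of the 9 in TTGC rose, and of the 9 in GCAA 1 fell. Those that rose there were C4T, C4A and C4G, which lack the central CpG. Their differences were 6.89, 6.31 and 2.88 (adjusted p = 0.00702, 0.0461 and 0.034), where 7.89% of all 8-mers were called in either direction.

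Among the variants, ttAcgcaa differs from the members in reading 13.8 and 24.4 on CREB1 C DNA too. Its change on 5mC against C DNA was not called (28.3, SE 9.63, adjusted p = 0.0809). It holds TTACGCAA, which shares ACGCAA with the CRE-C/EBP chimera. The 1 variant that fell was TTGCGTAA (C6T), chosen for mention after its values were seen. It read 4.40 and 2.43 on CREB1 5mC DNA, against 15.7 and 18.4 on C DNA (difference -13.6, SE 1.68, adjusted p = 1.10e-05), and TTGCGCAA, from which it differs by 1 base, rose. It is the reverse complement of TTACGCAA, so both are 1 duplex with the modified base on one strand or on the other, and on the C arrays the 2 orientations had levels of 13.8 to 24.4.

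Other 8-mers related to the 2 half-sites serve for comparison. All 15 CRE core 8-mers fell for CREB1 on 5mC against C DNA, with a median difference of -62.2, where 12 of the 15 C/EBP palindrome members rose with a median of 7.44. TGACGTCA read 33.7 and 12.0 on CREB1 5mC arrays, against 193 and 136 on C arrays, and on 5mC replicate 2 the palindrome TTGCGCAA was therefore above it. Of the 30 CRE-C/EBP chimera 8-mers, 6 rose and 19 fell. The 7 members with GCAA on the modified strand had a median difference of 11.6, with a median z-score of 13.2 on 5mC DNA and 2.79 on C DNA. Of the other 240 8-mers with CGCAA on that strand, 221 rose and none fell, and their median difference was 9.09, with a median z-score of 9.96 on 5mC DNA and 0.83 on C DNA. With GCAA on the printed strand the 7 members, 4 of which rose, had a median difference of 3.13. Of the other 240 8-mers with CGCAA on the printed strand, 7 rose and 37 fell, and the median difference was -0.06.

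For ATF1 on 5mC against C DNA, the 7 members with GCAA on the modified strand had a median difference of 4.38, against 4.37 for the 240 others of that orientation, of which 81 rose. With the printed strand it was 1.05 for the 7 members, against -0.19 for the 240 others, of which 2 rose. For JUND the medians were 0.997 for the members and 1.13 for the others on the modified strand, and -0.64 and -0.18 on the printed strand. With 5hmC, 1 of the 240 with CGCAA on the modified strand rose for CREB1 against C DNA, and the median difference was 2.19 for the 7 members and 1.18 for the 240. By rank on the CREB1 5mC arrays, tgcGCAAt was number 11 and 22 from the top of the table, against 3167 and 2295 on the C arrays, and TTGCGCAA was number 62 and 33, against 3010 and 2567. On ATF1 5mC arrays tgcGCAAt was number 12 on both, and TTGCGCAA number 41 and 34. On JUND 5mC arrays tgcGCAAt was number 54 and 203, against 2461 and 15671 on the C arrays, and TTGCGCAA number 826 and 648, against 4598 and 625.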

How the data were processed

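The authors deposited, for each of the 18 arrays, the fluorescence intensity (median signal and median background) of 40330 probes, per the file headers, and 1 table of z-scores for 65530 of the 65536 possible 8-mers on the 18 arrays, in which 6 cells hold no value. The authors gave 1 column of such scores per array, per the file headers, made by a formula not given in the sources used here. These deposited scores ranked with the background-subtracted intensity of probes whose synthesized strand held the 8-mer (rank correlation 0.957 to 0.975 on the 18 arrays), and less well with those holding it on the printed strand.

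From the z-scores, limma 3.58.1 (R 4.3.3) fitted 1 mean per group over all 18 arrays with a mean-variance trend and moderated, two-sided tests, and p-values were adjusted by Benjamini-Hochberg over all 65121 tested 8-mers at 0.05. The 409 8-mers with no probe were left out, and an array with no value was left out for that 8-mer, which touched no member. Orientation differences were fitted likewise over 32225 pairs. Only the fits of 8-mers and of orientation pairs were tested on simulated z-scores, for 1 comparison, and the other steps were not. Probe folds and counts were computed with Python 3.11.15, numpy 2.4.6 and pandas 2.3.3.

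Named 8-mers are all 15 members, TGACGTCA, and of the 18 one-base variants the 3 with the highest and 3 with the lowest mean CREB1 z-score on 5mC DNA. The variants TTGCGTAA, C4T, C4A and C4G were chosen after their values were seen. The members, lists and tests were chosen with earlier results of these data known. Alternatives were a replicate block, no trend, quantile normalization and log2 recomputation from the intensities. The log2 values were also taken with normexp at offset 50, with orientations merged, and without probes holding TGAC or ACGT. Others were at least 10 probes per 8-mer, leaving out each array of the proteins compared, only 1 protein's arrays, and bound at 3 or 6.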

Additional observations from a re-analysis of the deposited data

Results flagged for a closer look

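The effect of 5mC against C was tested for a difference between proteins, and 11 member values passed. Between CREB1 and ATF1 the effect was larger for CREB1 by 11.7 at ctgcGCAA (SE 2.13, adjusted p = 0.0186) and by 16.8 at tgcGCAAc (SE 3.40, adjusted p = 0.0371), in z-score units. With quantile normalization these were 3.40 and 3.79 and neither was called. Between CREB1 and JUND it was larger for CREB1 by 21.6 at TTGCGCAA, 22.1 at tgcGCAAc, 19.7 at ctgcGCAA, 10.6 at tgcGCAAg and 7.27 at tgcGCAAa, all with GCAA on the modified strand (adjusted p from 1.72e-05 to 0.0267). With GCAA on the printed strand alone, it was larger by 5.93 at TTGCgcag, 5.84 at gTTGCgca, 5.72 at cTTGCgca and 3.83 at tTTGCgca (adjusted p from 0.00228 to 0.0325). Of these, TTGCGCAA was not called with quantile normalization (25.5, adjusted p = 0.146). Nor were tgcGCAAc (adjusted p = 0.177), cTTGCgca (0.247), TTGCgcag (0.0652) and tTTGCgca (0.0743) in that setting. The largest estimate, 38.9 at tgcGCAAt between CREB1 and JUND, did not pass (SE 12.5, adjusted p = 0.11). Each group holds 2 arrays, too few for a test of single outlying arrays.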

How the results depend on the processing

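Counts are members or pairs called, with the count of the main test first. For CREB1 5mC against C (12) the count was 5 in log2 values without probes holding TGAC or ACGT. For CREB1 5hmC against 5mC (9) it was 2 with log2 recomputation, 1 with normexp, 1 without those probes, 2 with orientations merged and 3 with the arrays of the protein alone. For CREB1 5hmC against C (0) it was 2 with log2 recomputation, 3 with normexp and 1 without a trend. For ATF1 5mC against C (3) it was 7 with log2 recomputation, 1 without those probes, 6 merged, 6 without a trend, 8 with its own arrays and 7 with quantile normalization. For ATF1 5hmC against 5mC (3) it was 1, 6, 9 and 8 without those probes, merged, with its own arrays and with quantile normalization. The 5mC effect of CREB1 over ATF1 (2) was called in 0 members in the 4 log2 settings, with quantile normalization and without the 6 JUND arrays, a setting chosen after seeing the data. That of CREB1 over JUND (9) was called in 1, 1, 1 and 4 members in the log2 settings (plain, normexp, without those probes, merged) and in 4 with quantile normalization, and that of ATF1 over JUND (0) in 1 with quantile normalization.

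Orientation pairs called on CREB1 5hmC DNA (2) were 4 with log2 recomputation, 5 with normexp, 4 without those probes and 1 with its own arrays. On ATF1 5mC DNA (5) they were 1 with normexp and 2 without those probes. On ATF1 C DNA (0) they were 1 without those probes or with its own arrays, and on JUND 5mC DNA (1) they were 2 with log2 recomputation, its own arrays or quantile normalization. Changes of the orientation difference were called for CREB1 5mC against C (4) in 2 pairs with log2 recomputation, 1 with normexp and 0 without those probes, for CREB1 5hmC against C (0) in 2 with normexp and 1 without a trend, and for ATF1 5mC against C (0) in 1 with log2 recomputation or without a trend, 6 with its own arrays and 4 with quantile normalization.

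Leaving out in turn each array of the proteins compared gave, for members, 12 to 13 (CREB1 5mC against C), 5 to 11 (5hmC against 5mC) and 0 to 1 (5hmC against C). For ATF1 it gave 0 to 2 (5mC against C) and 0 to 1 (5hmC against 5mC). It gave 0 to 7 for CREB1 over ATF1 and 5 to 11 for CREB1 over JUND. For pairs it gave 3 to 7 and 0 to 2 (change, CREB1 5mC and 5hmC), 5 to 7, 0 to 4 and 0 to 1 (CREB1 5mC, 5hmC and C DNA), 0 to 5 (ATF1 5mC) and 0 to 1 (JUND 5mC). TTGCGCAA reversed for ATF1 5hmC against C without ATF1 C replicate 2 (-0.0758, against 1.25 without C replicate 1) and for JUND 5mC against C without the probes holding TGAC or ACGT (-0.897, log2 scale). The cause of these changes was not tested.

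Differences between replicates 1 and 2 correlated between groups with a Spearman rho of -0.16 to 0.229 over 36 pairs of groups. Whether arrays with the same replicate number were run together cannot be told from these values. With the replicate number as a block, 12 members were called for CREB1 5mC against C, 2 for ATF1 5mC against C and 1 for CREB1 over ATF1, and the other counts did not change. At a limit of 3, 4 and 6, the mean number of members bound per array was 13.5, 12 and 11.5 on CREB1 5mC DNA, 7, 4.5 and 3.5 on CREB1 5hmC, 3.5, 1.5 and 0.5 on CREB1 C, 10.5, 9.5 and 5 on ATF1 5mC, 2.5, 1.5 and 0 on ATF1 5hmC, 3, 1 and 0 on ATF1 C, 3.5, 2 and 0.5 on JUND 5mC, 0 throughout on JUND 5hmC, and 0.5, 0 and 0 on JUND C. With 2 arrays a group, and a signal only 1.55 times the background on JUND 5hmC replicate 2, the JUND estimates were imprecise. For JUND 5mC minus C the 95% interval was -4.89 to 7.55 for TTGCGCAA and -13.7 to 23 for tgcGCAAt. For JUND 5hmC minus C it was -7.17 to 5.28 for TTGCGCAA and -17.8 to 18.9 for tgcGCAAt. Differences anywhere within these intervals, not only small ones, remain possible.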
